A study of Mus musculus with 8 samples.

Results

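The genes described here encode the carriers of organic anions and cations that belong to the Slc22a, Slco and Slc47a families. Members were chosen by symbol: every protein-coding gene in GENCODE vM21 whose name starts with one of these 3 prefixes, which gave 41 of the 46517 genes listed, namely 25 Slc22a, 14 Slco and 2 Slc47a genes. A further 2 genes carry such a name without being protein-coding (Slco6b1 and Slc22a13b-ps) and were left aside. Gene expression had been measured by mRNA sequencing of whole kidneys from 8 mice. The 4 Control mice (C10, C11, C13 and C14) were Xpr1lox/lox littermates, in which exon 2 of Xpr1 is flanked by lox sites. Mice KO16, KO18, KO19 and KO20, the 4 cKO mice, had the genotype Xpr1lox/lox/Pax8-rtTA/LC1, so that doxycycline switches on Cre in tubule cells that express Pax8. All 8 animals were 8 weeks old when doxycycline (DOX, 2 mg/ml) was added to their drinking water, and drank it for 2 weeks. Control mice lacked both transgenes, so loss of Xpr1, a phosphate exporter, cannot be told apart from the presence of rtTA and Cre.

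Proximal tubule cells clear organic ions from the blood in 2 steps. Uptake carriers in the basolateral membrane take the ion up: Slc22a6 (OAT1) and Slc22a8 (OAT3) exchange organic anions for dicarboxylates held in the cell, and Slc22a2 (OCT2) lets cations enter down the membrane potential. Exit carriers in the brush border then release it, as Slc47a1 (MATE1) does for cations in exchange for protons. Other members run in the opposite direction and recover solutes from the filtrate, such as Slc22a12 (URAT1) for urate and Slc22a5 (OCTN2) for carnitine. The Slco genes encode organic anion transporting polypeptides, which carry bile salts, conjugated steroids, thyroid hormones and prostaglandins.

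The libraries held between 20366113 (KO16) and 26155030 (C13) reads assigned to genes, and 15382 genes had enough reads for testing. Xpr1 itself stood at 80.2 to 126 CPM (counts scaled to library depth with TMM factors) in Control and at 5.74 to 26.5 CPM in cKO kidneys, so no library went against its label. Several libraries stood apart. KO16 and KO20 had the largest shares of reads without a gene (52.0% and 56.2%, against 43.2% and 44.1% in the other cKO libraries). Most of these were reads with several alignments, 49.8% and 53.4% of the totals of KO16 and KO20. In KO18 and KO19 such reads made up 38.1% and 37.6%. KO16 also had the highest summed level of 4 injured tubule markers, at 588.6 CPM against 195.7 to 267.3 CPM in the other cKO libraries. C11 had the smallest share of reads without a gene (39.7%). It also had the highest summed level of 8 proximal tubule markers, at 12630 CPM against 6346 to 7227 CPM in the other Control libraries. These markers did not all go the same way. In C11, Slc34a1 was highest of the Control libraries (6768 against 2125 to 2856 CPM) and Slc7a13 lowest (1009 against 1371 to 1762 CPM). Slc5a12 and Aqp1 were neither highest nor lowest there. Members whose call changed without these libraries are named below.

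Stretches of 2 pairs of anion carriers are shown because these genes are near copies of each other, and a read can be assigned to 1 of a pair only where it covers a base in which they differ. Each stretch is 200 coding bases of the GENCODE vM21 transcript (build GRCm38), the stretch with the most differences, and capitals mark the bases that differ within the pair. All 4 genes lie on the minus strand of chromosome 19. Slc22a28 and Slc22a30, shown from coding base 647 to 846, differ at 7 of these bases and at 20 bases of the whole coding sequence.
Slc22a28: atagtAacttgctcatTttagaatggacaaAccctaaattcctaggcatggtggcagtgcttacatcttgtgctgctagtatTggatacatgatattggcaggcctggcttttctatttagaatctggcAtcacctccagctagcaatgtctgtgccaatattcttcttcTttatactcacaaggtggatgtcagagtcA
Slc22a30: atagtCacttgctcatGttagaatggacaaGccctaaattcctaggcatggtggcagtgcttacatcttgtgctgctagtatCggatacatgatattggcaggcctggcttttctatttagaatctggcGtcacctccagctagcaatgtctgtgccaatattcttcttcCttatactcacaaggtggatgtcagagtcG
Slc22a27 and Slc22a29, shown from coding base 686 to 885, differ at 12 of these bases and at 45 bases of the whole coding sequence.
Slc22a27: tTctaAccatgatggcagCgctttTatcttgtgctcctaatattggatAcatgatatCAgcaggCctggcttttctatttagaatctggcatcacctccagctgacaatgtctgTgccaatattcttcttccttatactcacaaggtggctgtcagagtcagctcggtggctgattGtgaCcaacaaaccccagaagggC
Slc22a29: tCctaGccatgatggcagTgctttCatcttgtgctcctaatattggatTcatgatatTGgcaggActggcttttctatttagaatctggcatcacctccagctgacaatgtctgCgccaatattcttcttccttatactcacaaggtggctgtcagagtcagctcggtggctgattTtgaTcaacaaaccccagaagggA
The promoters of 35 members, the 250 bases before the RefSeq start site (build GRCm38.p6), were searched on both strands for the HNF4 motif CAAAGTCCA. It was in 0 of the 35 and in 0.384% of all 32851 windows, which says only that these letters are not in those windows.

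Most carriers of the tubule were lower in cKO kidneys, and the largest falls were among the anion carriers. Of the 32 members tested, 17 fell and 1 rose at an adjusted p below 0.05 (edgeR quasi-likelihood F test, Benjamini-Hochberg over all 15382 genes), and 14 did not pass. Over all genes tested, 6.61% were lower and 7.5% higher by the same rule. The median log2 fold change of cKO over Control was -0.96 over the 32 tested members, of which 25 lay below 0, against 0.01 over all genes. Every cKO mouse was below every Control mouse in 17 members (11.6% of all genes) and above in 1 (11.2% of all genes), and the groups overlapped in 14. With library totals in place of TMM factors the median of all genes was 0.34 and that of the members -0.61. The members' median then lay -0.95 from that of all genes, against -0.97 with TMM factors. In whole kidney, fewer tubule cells and less RNA per cell cannot be told apart.

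**Figure D1:**
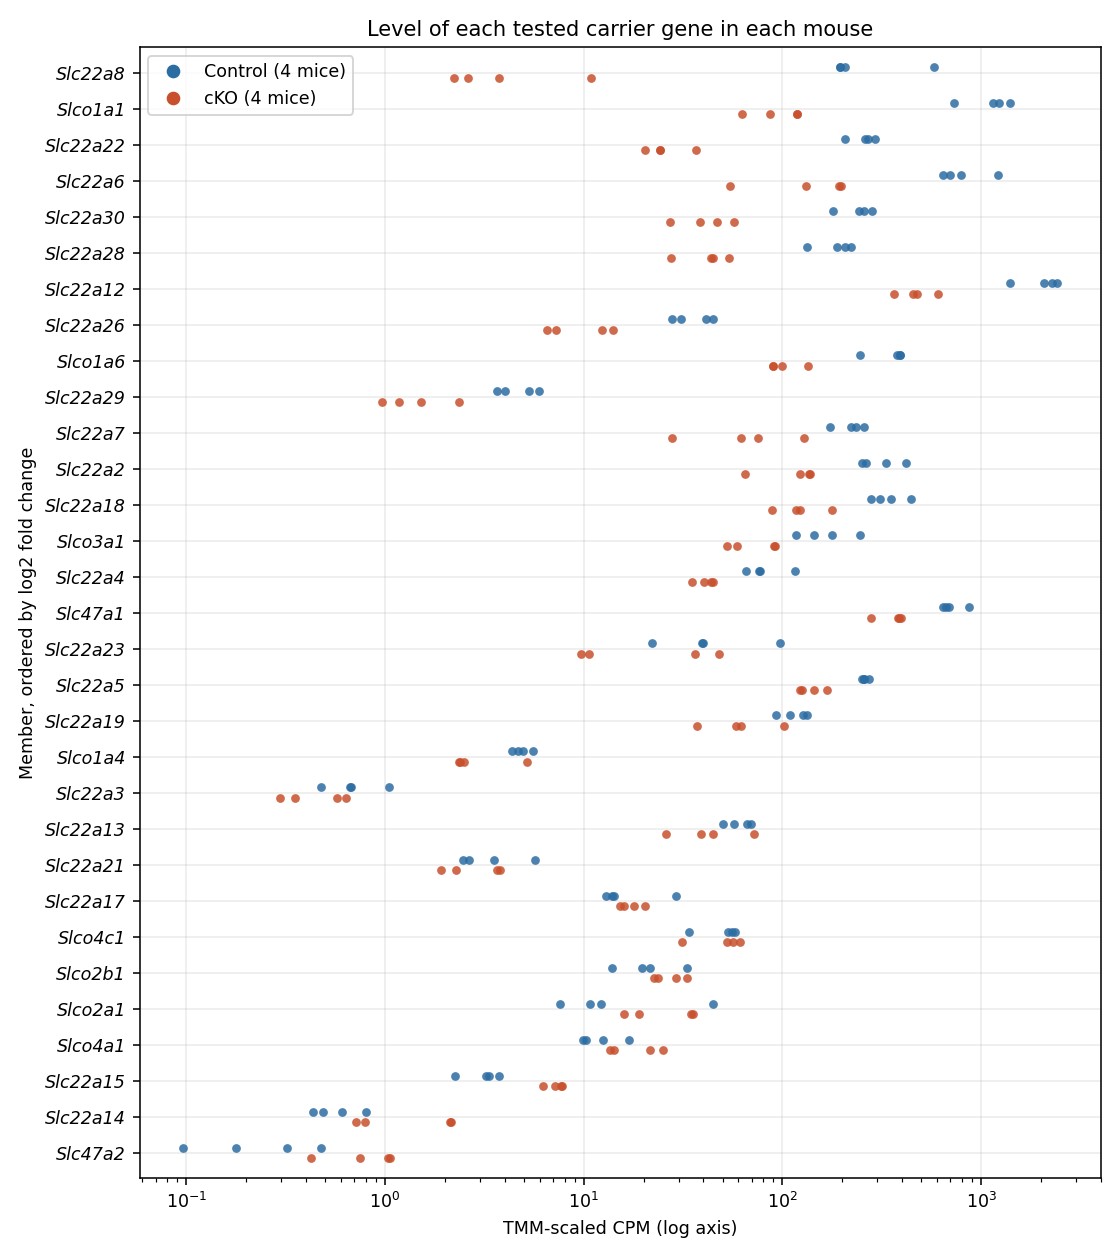
TMM-scaled CPM on a log axis for 31 of the 32 tested members (rows) in each of the 4 Control and 4 cKO mice (points). Groups are separate in 17 members with cKO mice on the left and in 1, Slc22a15, with cKO mice on the right.

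Per length, Slc22a12 was the most abundant member in both groups. The summed level of all members, in RPKM (reads per kilobase of exon at TMM-scaled depth), was 2850 ± 153 in Control kidneys (SD, n = 4; 2707 to 3036) and 874 ± 199 in cKO kidneys (633 to 1117). Slc22a12 made up 31.4% of the sum in Control (22.8% to 36.7%) and 24.2% in cKO kidneys (23.1% to 25.4%), so its shares overlapped. Slco1a1, Slc47a1, Slc22a6 and Slc22a18 had mean levels of 204 to 214 RPKM in Control kidneys, closer to each other than their spread between mice. In cKO kidneys these levels came apart, with Slc47a1 at 106 ± 16.1 and Slco1a1 at 18.3 ± 5.14 RPKM.

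By class, the OAT type and the Slco1 polypeptides made up a smaller share of the summed RPKM in cKO kidneys. Several other classes, the MATE exit carriers of cations among them, made up a larger one. The 11 carriers of the OAT type went from 24.5% of the sum in Control to 14.9% in cKO kidneys, and the Slco1 polypeptides from 10.7% to 5.43%. The mean share of the 2 urate and nicotinate exchangers was smaller too, 32.5% in Control and 26.7% in cKO kidneys. Their shares overlapped between the groups (24.0% to 37.5% against 25.5% to 27.4%). The 2 MATE genes went from 7.45% to 12.4%. The carnitine and zwitterion carriers went from 4.16% to 7.32%, and the Slco2 to Slco5 polypeptides, also anion carriers, from 1.34% to 3.5%. The larger MATE share went with a lower sum, 211 ± 30.3 RPKM in Control and 107 ± 16.3 RPKM in cKO kidneys. The shares were not tested.

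**Figure D2:**
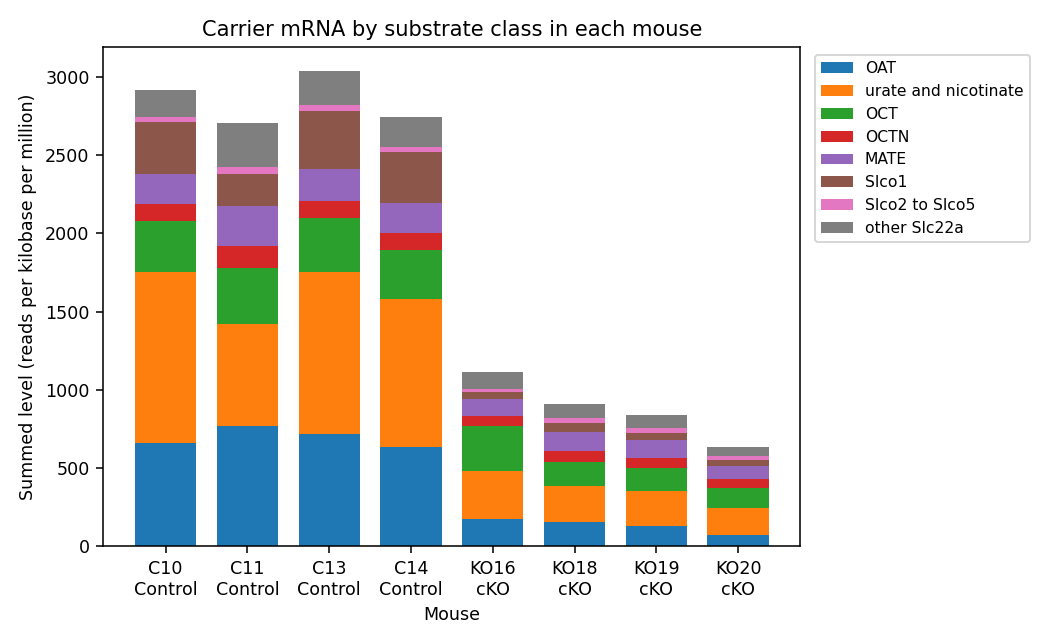
Summed RPKM of the members of each substrate class in each mouse, stacked by class. The 4 cKO bars reach 633 to 1117 RPKM and the 4 Control bars 2707 to 3036 RPKM.

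Among the organic anion carriers of the OAT type, 8 of 9 tested members fell, with a median log2 fold change of -2.14. Slc22a8 (ENSMUSG00000063796, chromosome 19, 8591254 to 8611835, plus strand) fell most of all members. Its level in C10, C11, C13 and C14, the order used from here on, was 195, 576, 195 and 206 CPM. In KO16, KO18, KO19 and KO20, likewise in this order, it was 2.60, 10.9, 3.76 and 2.24 CPM. Thus 1.66% of the Control mean was left, and every cKO mouse was far below every Control mouse. The log2 fold change was -5.90 (SE 0.70, adjusted p = 0.00107), and -5.34 without C11, the mouse with the highest level.

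Slc22a6 (ENSMUSG00000024650, chromosome 19, 8618039 to 8628299, plus strand), the classical carrier of p-aminohippurate, starts 6203 bases past the end of Slc22a8. It was measured at 646, 1218, 790 and 694 CPM in Control and 196, 192, 132 and 54.5 CPM in cKO mice. C11 was again the highest Control mouse and KO20 the lowest cKO mouse, and the groups were separate. Its log2 fold change was -2.54 (SE 0.42, adjusted p = 0.00475). The difference between these neighbours was tested as the log2 ratio of Slc22a6 to Slc22a8 within each mouse, which library scaling hardly touches. The ratio was 1.64 ± 0.40 in Control (SD, n = 4; 1.08 to 2.01) and 4.84 ± 0.85 in cKO mice (4.08 to 5.98). The difference of 3.20 had p = 0.0286 by exact permutation test, the smallest p that 4 against 4 allows. After adjustment over the 7 ratios compared it was 0.0667 and did not pass, although all 4 cKO mice lay above all 4 Control mice. At the smallest p, the adjusted value depends only on how many of the 7 ratios reach it. Not passing therefore says nothing about this pair, nor about the other pairs below with the same p.

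Slc22a7 (OAT2), on chromosome 17 (46432183 to 46438457, minus strand), carries nucleotides and other anions. Its level was 234, 173, 258 and 221 CPM in Control and 128, 61.9, 75.1 and 27.7 CPM in cKO mice. The cKO mice varied more than 4-fold among themselves, yet all lay below the Control mice. The log2 fold change was -1.60 (SE 0.41, adjusted p = 0.0303). This call was lost, at adjusted p up to 0.0873, when any of C10, C13, C14, KO18, KO19 or KO20 was left out.

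Slc22a22 (OAT-PG, chromosome 15, 57243767 to 57477625, minus strand), a mouse carrier that takes up prostaglandins, fell in all 4 cKO mice to a narrow range. It stood at 269, 207, 293 and 262 CPM in Control and at 24.1, 36.5, 20.3 and 24.1 CPM in cKO mice. The cKO mean was 10.2% of the Control mean, and the log2 fold change was -3.29 (SE 0.26, adjusted p = 0.000215). It held rank 8 of the members per length in Control and rank 16 in cKO kidneys.

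Of the other OAT genes, all but Slc22a20, which had no read, form a block on chromosome 19, on the minus strand, that is found in rodents. In the order of the chromosome it holds Slc22a19, Slc22a26, Slc22a27, Slc22a28, Slc22a29 and Slc22a30, and of the 5 tested 4 fell. Slc22a30 was at 258, 179, 283 and 242 CPM in Control and 38.4, 57.2, 46.8 and 27.2 CPM in cKO mice (log2 fold change -2.51, SE 0.28, adjusted p = 0.000892). Slc22a28 was at 221, 133, 207 and 188 CPM in Control and 43.6, 53.8, 44.9 and 27.5 CPM in cKO mice (log2 fold change -2.14, SE 0.27, adjusted p = 0.00144). In both, C11 was the lowest Control mouse and KO20 the lowest cKO mouse, and the groups were separate.

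Slc22a26, the second gene of the block, was at 41.1, 27.8, 44.5 and 30.9 CPM in Control and 7.23, 14.01, 12.3 and 6.50 CPM in cKO mice. Its log2 fold change was -1.85 (SE 0.31, adjusted p = 0.00519). Slc22a29 was low in both groups, at 5.31, 5.98, 3.65 and 4.03 CPM and 1.17, 2.37, 0.970 and 1.52 CPM (log2 fold change -1.65, SE 0.33, adjusted p = 0.0114). Its groups did not overlap, but with KO16 and KO20 both left out its adjusted p was 0.0502. Slc22a19 (OAT5), at the start of the block, did not pass: it stood at 127, 92.3, 132 and 109 CPM in Control and 101, 62.0, 58.2 and 37.0 CPM in cKO mice (log2 fold change -0.83, SE 0.30, adjusted p = 0.108). KO16 alone lay within the Control range, and without it Slc22a19 passed as lower.

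Several genes of this block are near copies of each other. The coding sequences of Slc22a28 and Slc22a30 are 98.8% identical over 1656 bases, and those of Slc22a27 and Slc22a29 97.3% over 1653 bases. Windows of 100 bases that occur in another gene too make up 37.0% of the transcript windows of Slc22a28 and 21.1% of those of Slc22a30. The counts leave out reads with several alignments, so the levels of these 4 genes rest on the parts in which they differ and are uncertain. Slc22a27 was not tested. Its 29 reads in Control and 61 in cKO mice gave a ratio of 1.8 per TMM-scaled library size (95% exact counting interval 1.14 to 2.9). This was opposite in direction to its near copy Slc22a29.

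**Figure D3:**
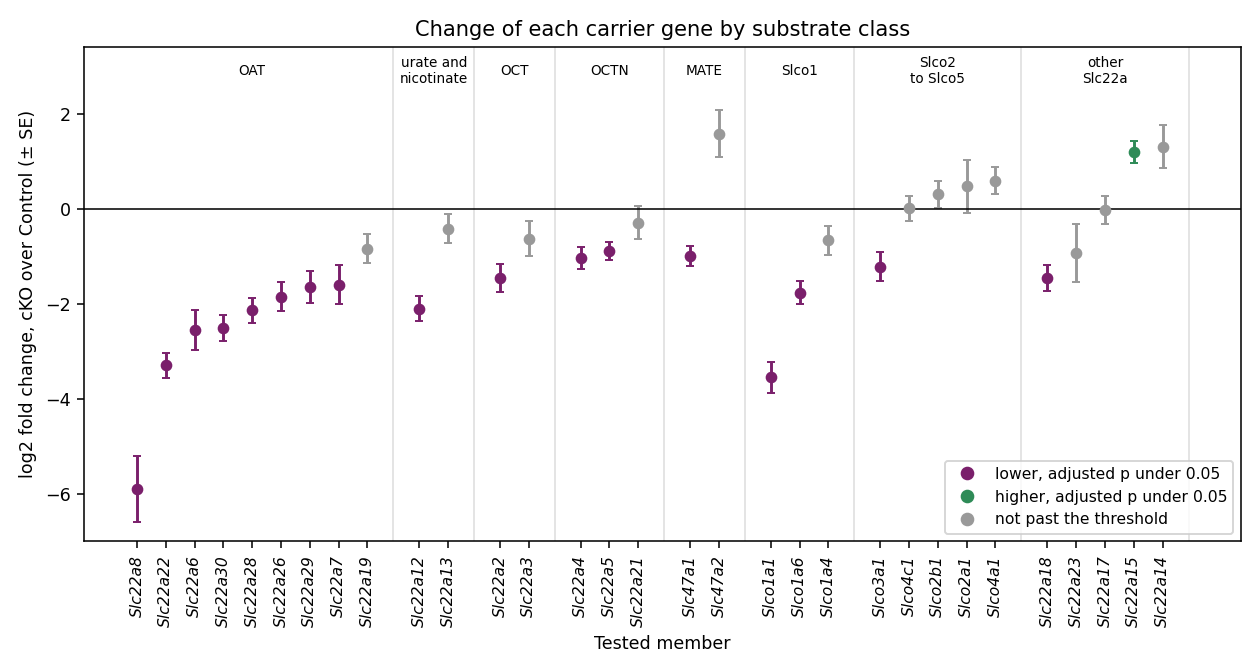
Log2 fold change of cKO over Control with its SE for 31 of the 32 tested members, grouped by substrate class along the axis. In the OAT class 8 of 9 members passed as lower, whereas Slc22a15 is the 1 member that passed as higher.

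Among the 2 urate and nicotinate exchangers, Slc22a12 fell and Slc22a13 did not pass. Slc22a12 (ENSMUSG00000061742, chromosome 19, 6535845 to 6543032, minus strand) is the brush border carrier that recovers urate. It stood at 2418, 1397, 2258 and 2066 CPM in Control and 609, 474, 456 and 364 CPM in cKO mice. C11, highest of the Control mice in Slc22a6 and Slc22a8, was lowest here, and the groups were still separate (log2 fold change -2.10, SE 0.27, adjusted p = 0.00153). Its exons overlap those of Nrxn2 on the opposite strand over 682 bases, 30.1% of their length. The kit marks strand, but the strand setting of the counting is not given in the sources used here. Slc22a13 (OAT10), which exchanges nicotinate and urate, was at 50.02, 66.2, 69.1 and 57.2 CPM in Control and 72.3, 44.8, 39.0 and 25.9 CPM in cKO mice (log2 fold change -0.42, SE 0.31, adjusted p = 0.434). KO16 was the highest of all 8 mice. Shared 100-base windows, mainly with the copy Slc22a13b-ps, make up 21.8% of its transcript windows. The log2 ratio of Slc22a12 to Slc22a6 was 0.56 higher in cKO mice (exact permutation p = 0.4, adjusted 0.533).

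Among the cation carriers, Slc22a2 on the basolateral membrane fell. Slc22a2 (OCT2, ENSMUSG00000040966, chromosome 17, 12584132 to 12628488, plus strand) was measured at 253, 420, 331 and 262 CPM in Control and 122, 138, 136 and 65.0 CPM in cKO mice. The groups were separate, with 36.4% of the Control mean left (log2 fold change -1.46, SE 0.30, adjusted p = 0.0117). Slc22a3 (OCT3) was under 1.1 CPM in every mouse (log2 fold change -0.63, SE 0.37, adjusted p = 0.324), and 9.31% of its exon length overlaps Plg on the opposite strand.

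Cations leave the cell through the MATE exchangers, of which Slc47a1 fell and Slc47a2 did not pass. Slc47a1 (ENSMUSG00000010122, chromosome 11, 61343401 to 61378345, minus strand) stood at 661, 866, 688 and 644 CPM in Control and 381, 394, 385 and 278 CPM in cKO mice. The cKO mean was 50.3% of the Control mean (log2 fold change -0.99, SE 0.21, adjusted p = 0.0151). The call was lost without C13 or without KO20 (adjusted p up to 0.0651) and with library totals (0.0896). The log2 ratio of this exit carrier to the uptake carrier Slc22a2 was 1.20 ± 0.17 in Control (1.04 to 1.39) and 1.68 ± 0.28 in cKO mice (1.5 to 2.09; SD, n = 4 each). All cKO mice lay above all Control mice in this ratio, and its exact permutation p of 0.0286 became 0.0667 after adjustment. Slc47a2, whose gene lies 540 bases from that of Slc47a1, was nearly silent, at 0.0965, 0.321, 0.478 and 0.177 CPM in Control and 0.744, 1.06, 1.03 and 0.422 CPM in cKO mice (log2 fold change 1.58, SE 0.49, adjusted p = 0.0634). It passed as higher with upper-quartile factors (adjusted p = 0.0425), with library totals (0.0346), in DESeq2 (0.0374) and without KO16 and KO20 (0.0392).

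Of the 3 tested carnitine and zwitterion carriers, which share a block on chromosome 11, 2 fell. Slc22a5 (OCTN2, ENSMUSG00000018900, 53864542 to 53891660, minus strand), which recovers carnitine, varied little among Control mice, with 250, 273, 256 and 257 CPM. In cKO mice it was at 145, 167, 125 and 123 CPM (log2 fold change -0.89, SE 0.19, adjusted p = 0.0137). Slc22a4 (OCTN1, 53983123 to 54028090, minus strand), a carrier of ergothioneine, was at 65.4, 116, 76.9 and 76.3 CPM in Control and 44.5, 40.2, 43.4 and 34.97 CPM in cKO mice (log2 fold change -1.04, SE 0.23, adjusted p = 0.0162). Both were separate between groups, and their log2 ratio differed by -0.10 (exact permutation p = 0.6, adjusted 0.6). Slc22a5 lost its call without C13, C14 or KO20 (adjusted p up to 0.0694) and Slc22a4 without KO20 (0.0779). With library totals in place of TMM factors neither passed (adjusted p = 0.0914 and 0.0927). Slc22a21, a further carnitine carrier with 90.4% coding identity to Slc22a5, lies between them and was at 2.48 to 5.66 CPM in Control and 1.91 to 3.79 CPM in cKO mice (log2 fold change -0.29, SE 0.35, adjusted p = 0.656). Slc22a16, a carnitine carrier of the testis, had no read.

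The 5 Slc22a members without a settled substrate went in different directions. Slc22a18 (chromosome 7, 143473736 to 143499334, plus strand), an imprinted gene, was at 280, 444, 351 and 311 CPM in Control and 177, 122, 116 and 88.5 CPM in cKO mice (log2 fold change -1.46, SE 0.27, adjusted p = 0.00751). Slc22a15 (ENSMUSG00000033147, chromosome 3, 101855776 to 101924453, minus strand) was the 1 member that rose. It stood at 3.76, 3.33, 2.26 and 3.24 CPM in Control and 6.22, 7.71, 7.79 and 7.13 CPM in cKO mice, with separate groups and little spread (log2 fold change 1.20, SE 0.23, adjusted p = 0.00883). Its level per length was low, at 0.221 ± 0.0445 RPKM in Control and 0.506 ± 0.0509 RPKM in cKO kidneys.

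The other 3 did not pass. Slc22a17, described as a receptor for lipocalin-2, was at 12.97, 29.0, 13.9 and 14.2 CPM in Control and 15.3, 20.3, 18.0 and 15.9 CPM in cKO mice (log2 fold change -0.01, SE 0.29, adjusted p = 0.983). C11 stood above all 7 other mice, and without it the fold change was 0.34 (adjusted p = 0.333). Slc22a23, an orphan carrier, spread widely, with 21.9, 97.7, 39.3 and 39.9 CPM in Control and 9.67, 47.8, 36.4 and 10.7 CPM in cKO mice (log2 fold change -0.93, SE 0.61, adjusted p = 0.38). Slc22a14, known from sperm, was at 0.434 to 0.802 CPM in Control and 0.717 to 2.15 CPM in cKO mice (log2 fold change 1.31, SE 0.45, adjusted p = 0.0874), and passed as higher without KO16 (1.51, adjusted p = 0.0478).

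The Slco1 polypeptides, a block on chromosome 6, held the steepest fall after Slc22a8 of all members. Slco1a1 (ENSMUSG00000041698, 141907282 to 141946962, minus strand), a carrier of steroid conjugates known to be higher in male kidney, was at 1227, 729, 1402 and 1152 CPM in Control and 86.6, 119, 118 and 62.8 CPM in cKO mice. The highest cKO mouse was thus far below the lowest Control mouse, C11, and 8.57% of the Control mean was left (log2 fold change -3.54, SE 0.32, adjusted p = 0.000427). Slco1a6, the next tested gene of the block and a carrier described mainly in kidney, stood at 378, 245, 390 and 389 CPM in Control and 89.4, 134, 89.1 and 99.9 CPM in cKO mice (log2 fold change -1.76, SE 0.24, adjusted p = 0.0021). The log2 ratio of Slco1a1 to Slco1a6 was 1.67 ± 0.13 in Control (1.57 to 1.85) and -0.12 ± 0.44 in cKO mice (-0.67 to 0.41; SD, n = 4 each). Per length, Slco1a1 stood at 214 ± 54.1 RPKM and Slco1a6 at 92.0 ± 18.5 RPKM in Control, and at 18.3 ± 5.14 and 27.1 ± 5.56 RPKM in cKO kidneys. The difference of -1.79 in the log2 ratio had an exact permutation p of 0.0286, 0.0667 after adjustment. Slco1a4 was at 5.55, 4.69, 4.95 and 4.34 CPM in Control and 5.21, 2.37, 2.39 and 2.49 CPM in cKO mice (log2 fold change -0.66, SE 0.30, adjusted p = 0.204), again with KO16 alone in the Control range, and -1.01 without KO16 (adjusted p = 0.00901).

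**Figure D4:**
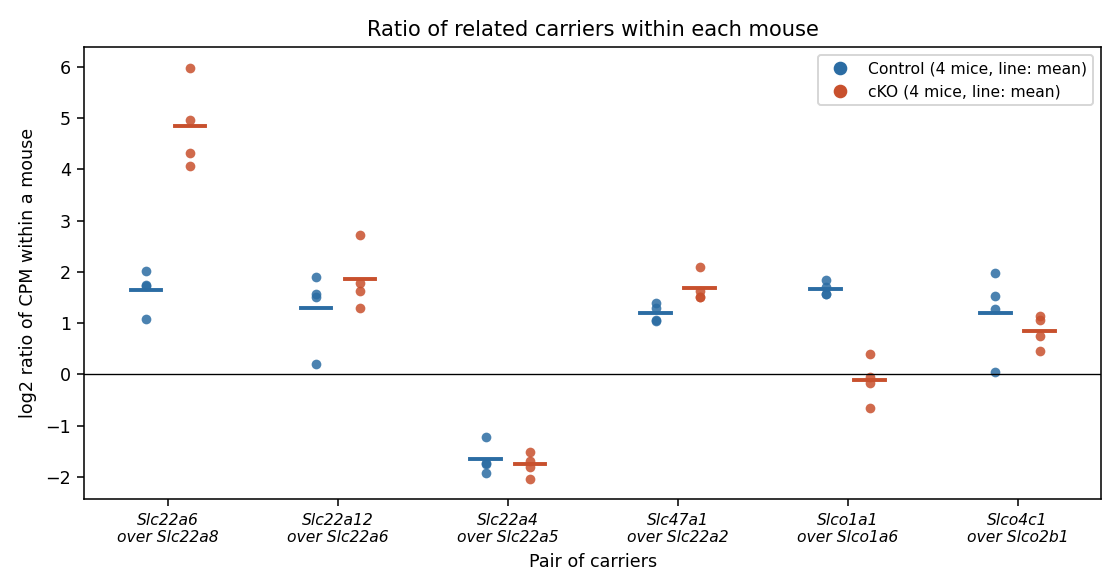
Log2 ratio of 6 pairs of related carriers within each mouse (points), computed from CPM plus 0.5, with the mean of each group. Groups do not overlap for Slc22a6 / Slc22a8, Slc47a1 / Slc22a2 and Slco1a1 / Slco1a6, each with an adjusted p of 0.0667.

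Outside this block 1 of 5 tested Slco genes fell. Slco3a1 (chromosome 7, 74275419 to 74554780, minus strand), a carrier of prostaglandins and thyroid hormone, was at 117, 245, 178 and 144 CPM in Control and 59.0, 90.4, 92.1 and 52.3 CPM in cKO mice (log2 fold change -1.22, SE 0.30, adjusted p = 0.026). The call was lost without C11, C13, C14 or KO20 (adjusted p up to 0.0809), without KO16 and KO20 together (0.087) and with library totals alone (0.132). Slco4c1, a basolateral carrier of digoxin and thyroid hormone in the proximal tubule, was at 55.7, 33.8, 52.9 and 57.6 CPM in Control and 31.3, 61.0, 56.3 and 52.8 CPM in cKO mice. Its means were 49.98 ± 10.95 and 50.3 ± 13.1 CPM (SD, n = 4; log2 fold change 0.01, SE 0.27, adjusted p = 0.986).

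The last 3 tested Slco genes had positive fold changes that did not pass. Slco2a1, the prostaglandin transporter, was at 7.62, 44.7, 10.7 and 12.2 CPM in Control and 18.9, 35.3, 34.5 and 15.9 CPM in cKO mice (log2 fold change 0.48, SE 0.56, adjusted p = 0.645). C11 alone exceeded every cKO mouse, and without it Slco2a1 passed as higher (1.36, adjusted p = 0.0442). Slco2b1, a carrier of sulfated steroids, was at 13.8, 33.0, 21.5 and 19.7 CPM in Control and 22.6, 29.0, 33.2 and 23.6 CPM in cKO mice (log2 fold change 0.30, SE 0.29, adjusted p = 0.554). Slco4a1, a thyroid hormone carrier, was at 9.89, 12.5, 10.2 and 16.9 CPM in Control and 14.2, 21.7, 25.0 and 13.5 CPM in cKO mice (log2 fold change 0.59, SE 0.28, adjusted p = 0.223). The log2 ratio of Slco4c1 to Slco2b1 differed by -0.35 (exact permutation p = 0.457, adjusted 0.533).

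Too few reads were counted for 9 members to be tested, with at most 18 reads of any of them in a library. Slc22a16, Slc22a20, Slco6c1 and Slco6d1 had none. Slco1a5 gave 1 read in Control and 32 in cKO mice, with reads in all 4 cKO mice. This gene had a ratio of 27.3 per TMM-scaled library size (95% exact counting interval 4.57 to 1110). It passed as higher when the filter on low counts was dropped and in DESeq2. Slco5a1 gave 0 and 17 reads, the latter from 3 mice. With up to 3 counts allowed for the Control group, the ratio per TMM-scaled library size is at least 4.84. That bound takes the 17 reads as exact and does not cover spread between mice. Slco1b2, a carrier of the liver, gave 19 and 7 reads (ratio 0.315, 0.112 to 0.782) and Slco1c1, a carrier of the brain and choroid plexus, 8 and 12 (ratio 1.28, 0.482 to 3.61). These intervals cover counting error only.

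**Figure D5:**
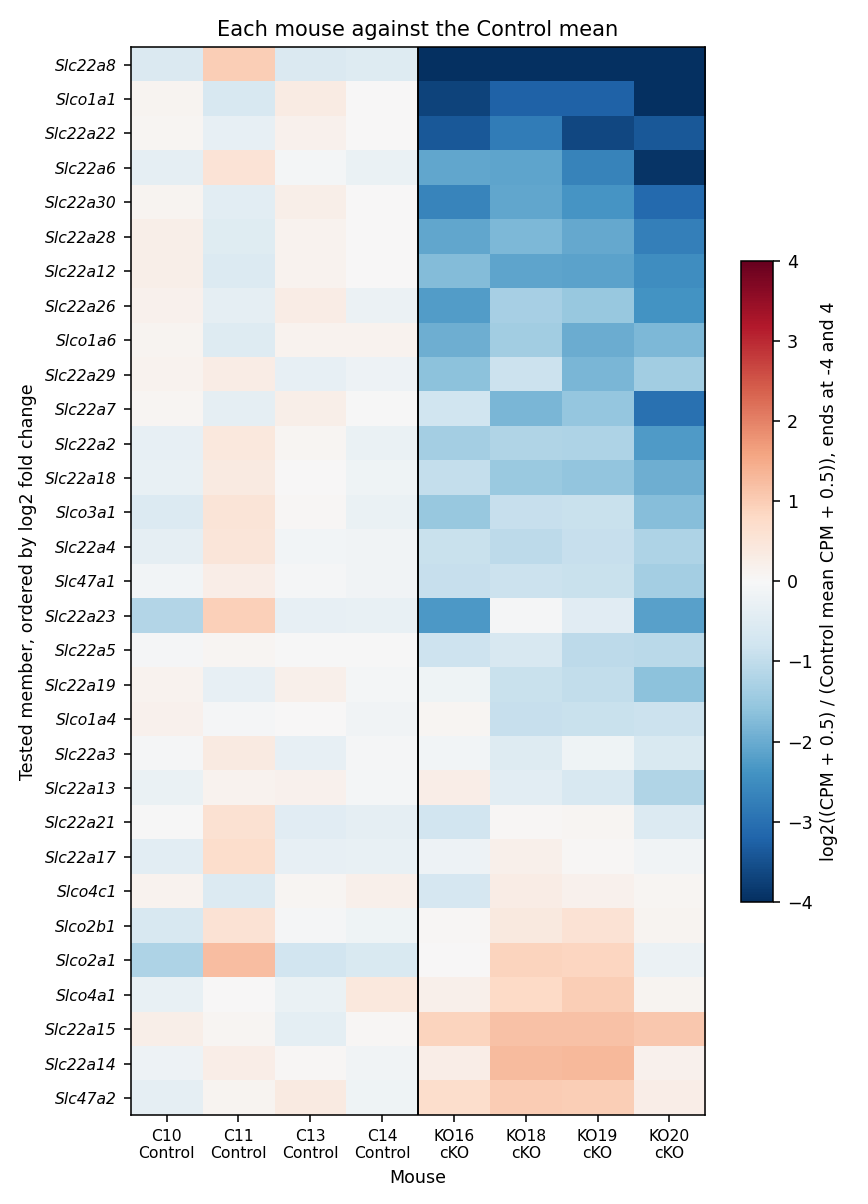
Log2 of CPM plus 0.5 in each mouse over the Control mean plus 0.5 for 31 of the 32 tested members (rows), with colours ending at -4 and 4. C11 departs from the other Control mice in either direction depending on the gene, and KO16 lies near 0 in Slc22a19 and Slco1a4 where the other cKO mice are blue.

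Members differed in which mouse was highest or lowest, as the map of each mouse against the Control mean shows. C11 was the highest Control mouse in 16 of the 32 tested members and the lowest in 11. The median exon length was 3778 bases in the former, which include Slc22a8, Slc22a6, Slc22a2 and Slc47a1, and 2949 bases in the latter, which include Slc22a12 and Slco1a1. The 5 members in which C11 was neither had a median of 4799 bases. KO20 was the lowest cKO mouse in 21 members and the highest in 0. KO18 was the highest cKO mouse in 16 and KO16 in 10. With the trend on transcript length removed, 18 members were lower, beside 9.76% of all genes, and 1 higher.

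Without KO16, KO20 and C11, which leaves 3 Control and 2 cKO mice, 21 members were lower (28.2% of all genes) and 7 higher (29.5% of all genes). All 17 members first called lower were among the 21, and Slc22a13, Slc22a19 and Slco1a4 were lower there as well. Slc22a14, Slc22a17, Slc47a2, Slco2a1, Slco2b1 and Slco4a1 joined Slc22a15 as higher. KO16 was the 1 cKO mouse at or above the lowest Control mouse for Slco1a4, and C11 held the top Control value for Slc22a17 and Slco2a1.

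Several partners of these carriers fell as well. A list of 14 genes for dicarboxylate supply, apical anion exit, ABC efflux pumps and the scaffold that anchors them held 7 that fell and 0 that rose (median log2 fold change -1.10). The shares over all genes were 6.61% lower and 7.5% higher. Slc13a3 and Slc13a2, which bring in the dicarboxylates that Slc22a6 and Slc22a8 exchange, changed by -1.84 (SE 0.41, adjusted p = 0.0169) and -2.27 (SE 0.38, adjusted p = 0.00478) on the log2 scale. The apical urate and anion carriers Slc17a3 (-2.11) and Slc17a1 (-1.39) fell as well. So did Slc16a9 (-1.92), the monocarboxylate carrier Slc5a8 (-1.30) and Pdzk1 (-0.99), the scaffold that binds Slc22a12. Adjusted p of these genes ranged from 0.00175 to 0.0176. Slc17a1 lost its call without C13 or KO20, Slc5a8 without C13 and Pdzk1 without C13, C14 or KO20. With library totals Slc5a8 (adjusted p = 0.0948) and Pdzk1 (0.0821) did not pass, and leaving out C13 left 4 of the 14 lower (3.65% of all genes). None of the 5 efflux pumps of the list passed: Abcg2 was at 493 to 580 CPM in Control and 286 to 407 CPM in cKO mice (log2 fold change -0.62, adjusted p = 0.07), and Abcc4 at 17.6 to 39.0 and 19.9 to 51.5 CPM (0.60, adjusted p = 0.356). Without KO16, KO20 and C11, 9 of the 14 were lower (28.2% of all genes) and 1 higher (29.5% of all genes). The 1 higher was Abcc4 (log2 fold change 1.35, adjusted p = 1.4e-05), in a fit with the limit given above. In DESeq2 Abcg2, Abcb1a and Abcb1b passed as lower (adjusted p = 0.00512, 0.0309 and 0.0463).

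Of 13 tested nuclear factors and receptors tied to these carriers, 4 fell (6.61% of all genes) and 1 rose (7.5% of all genes). Their median log2 fold change was -1.08. Hnf4g (log2 fold change -2.04, adjusted p = 0.00196), Nr1h4, the bile acid receptor (-1.24, 0.00607), and Ppara (-1.97, 0.019) fell. Ppara did not pass without KO16 and KO20 (-1.47, adjusted p = 0.0506) or with library totals (0.0595), under which 2 of the 13 were lower (3.56% of all genes). Hnf4a, a main regulator of proximal tubule genes, stood at 557 to 919 CPM in Control and 123 to 407 CPM in cKO mice (log2 fold change -1.55, SE 0.41, adjusted p = 0.0363). That call held only without KO18 or without KO19, and was lost without each of the other mice (adjusted p up to 0.0927). Ahr rose (1.07, adjusted p = 0.0357), a call lost when any mouse but KO16 was left out, in limma-voom (0.0515) and with no filter (0.0586).

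Several carriers differ between male and female mice, so genes that show sex were read as well. All 8 libraries held reads of Y-linked genes, with Ddx3y at 21.7 to 104 CPM, and Xist did not exceed 0.217 CPM. Cyp4a12a (log2 fold change -5.25, adjusted p = 0.000892) and Cyp7b1 (-2.06, adjusted p = 0.00173), known to be higher in male kidney like Slco1a1, fell. Slc7a12, known to be higher in female kidney, rose (2.93, adjusted p = 0.0203). Of the 9 tested genes of this list, Y-linked ones included, 2 fell (6.61% of all genes), 1 rose (7.5% of all genes) and 6 did not pass. Among the latter were Kap, known to be higher in male kidney (-1.49, adjusted p = 0.096), and Prlr, known to be higher in female kidney, with a negative fold change (-1.08, adjusted p = 0.079).

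Markers of proximal tubule cells, the site of most members, moved with these results. Their summed level was 6346 to 12630 CPM in Control and 1574 to 2921 CPM in cKO mice. Beside the counts of markers given here, 6.61% of all genes were called lower and 7.5% higher. Of the 8 markers 5 fell (Lrp2, Slc34a1, Slc5a2, Slc5a12 and Slc7a13), while Aqp1 (log2 fold change -0.21, adjusted p = 0.582), Slc5a1 (-0.24, adjusted p = 0.586) and Cubn (-1.76, adjusted p = 0.0609) did not pass. All 4 injured tubule markers rose, from a sum of 12.3 to 44.8 CPM to 196 to 589 CPM, and 2 of 3 macrophage markers rose (36.4 to 75.4 against 75.2 to 94.6 CPM). Of 3 fibroblast markers (60.8 to 109.7 against 124.2 to 219.1 CPM) Dcn rose (log2 fold change 1.45, adjusted p = 0.0178). Of 4 collecting duct markers (261 to 278.4 against 307.9 to 554.2 CPM) 1 rose, Aqp2 (1.10, adjusted p = 0.0117), and 1 fell, Aqp3 (-1.03, adjusted p = 0.0231). The 4 endothelial markers were at 246.5 to 314.7 against 172.6 to 213.2 CPM, with none past the threshold. None of the 3 thick ascending limb markers passed (3220 to 3939 against 3252 to 4935 CPM). Nor did any of the 3 distal convoluted tubule markers (248.7 to 816.9 against 150.7 to 373.8 CPM). The 3 podocyte markers (125 to 314.5 against 64.88 to 152.2 CPM) all had negative fold changes, and none passed. The 3 adipose markers reached 29.07 CPM in KO16 and 27.92 CPM in KO20, against at most 9.029 CPM in the other 6 mice. The 5 liver markers summed to 220 to 434 CPM in Control and 30.2 to 101 CPM in cKO mice, with 2 of them, Alb and Ttr, lower. The part of any of these in the levels of the carriers was not tested.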

How the data were processed

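Whole-kidney mRNA libraries of 4 Control and 4 cKO mice were compared, 1 library per mouse. The authors deposited raw counts of reads per Ensembl gene. The submitters' processing notes name cutadapt 1.3, STAR 2.4.0g, HTSeq 0.6.1 and build GRCm38. Neither the strand setting nor the annotation release is named there or in the labels. Closing lines that name no gene (39.7% to 56.2% of a file's total) were kept out of library sizes. GENCODE vM21 gave symbols, positions and exon lengths for 46005 identifiers, and 512 did not match.

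Counts were fitted with edgeR 4.0.16 (R 4.3.3): TMM factors, filterByExpr (minimum count 10, total 15), quasi-likelihood F test, Benjamini-Hochberg over 15382 genes, threshold 0.05. The common biological coefficient of variation was 0.386. The fit was tested on simulated data. Values per mouse are given for members with a mean of 10 CPM or more in either group or past the threshold. Ratios used a pseudocount of 0.5 CPM and two-sided exact permutation tests, adjusted over 7 pairs. RPKM used exon length. Promoters are RefSeq's (GRCm38.p6). Values of 1 tested member, 1 ratio, some regulators and 1 further motif are not reported here; the counts include them, except those of far libraries. Coding sequences were aligned with Biopython 1.88, in place of proteins, after the data were seen. The labels do not say whether mice came from separate litters, so the p-values rest on how these 8 animals varied, which may be partly technical. Alternatives were library totals, upper-quartile and RLE factors, DESeq2 1.42.0, limma-voom 3.58.1, other filters, removal of a length trend, other pseudocounts, and leaving out mice. Members, lists and tests were chosen with earlier results of these data known.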

Additional observations from a re-analysis of the deposited data

Results flagged for a closer look

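In 6 of 62 groups of 4 mice (31 tested members in each genotype), 1 mouse lay far from the other 3 by Dixon's criterion at its 95% level, and chance flags about 1 group in 20. C11 was that mouse in 4 of them. It held 576.4 CPM of Slc22a8, the anion uptake carrier, against 195 to 205.8 CPM in the other Control mice. It held 44.68 CPM of Slco2a1, the prostaglandin transporter, against 7.621 to 12.19 CPM, and 29.04 CPM of Slc22a17 against 12.97 to 14.23 CPM. In Slco1a6 the same mouse was low, with 245.2 CPM against 377.5 to 389.6 CPM. KO16 was high in Slco1a4, with 5.207 CPM against 2.368 to 2.489 CPM in the other cKO mice. KO20 was low in Slc47a1, with 278 CPM against 380.7 to 394.4 CPM.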

How the results depend on the processing

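The count of members lower in cKO kidneys was 13 with library totals, 17 or 18 under the other scalings, filters and tools and with the length trend removed, and 12 to 20 when 1 mouse was left out. The share of all genes called lower moved as well, from 6.61% to 3.56% with library totals, 9.76% with the length trend removed and 3.63% to 8.52% with 1 mouse left out. The count of members higher, 1 as reported, was 2 with upper-quartile factors, library totals or no filter, 3 in DESeq2 and without KO16 and KO20, 7 without KO16, KO20 and C11, and 1 to 2 with 1 mouse left out. Of the Slc47a genes 0 were lower with library totals and 0 to 1 with 1 mouse left out. Members near 0 changed sign: Slc22a17 with upper-quartile factors (0.129), library totals (0.306), limma-voom (0.062), a mean of at least 1 CPM (0.00773), the length trend removed (0.0322), without KO16 and KO20 (0.118), without these and C11 (0.44), and from -0.147 to 0.335 with 1 mouse left out. Slc22a21 was at 0.0683 with library totals, 0.0537 without KO16 and KO20, 0.338 without these and C11, and -0.443 to 0.018 with 1 mouse left out. Slco4c1 was at -0.0123 in DESeq2, -0.0224 with no filter and -0.143 to 0.183 with 1 mouse left out, and Slc22a23 at 0.279 without KO16, KO20 and C11. The log2 ratio of Slc22a4 to Slc22a5 ranged from -0.192 to 0.039 with 1 mouse left out. The cause was not tested. No paired analysis was possible because the labels do not pair any Control mouse with a cKO mouse. Members under about 1 CPM rest on few reads.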
